A study of Mus musculus with 6 samples.

Results

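The genes described here were close to silent in leukemia cells of vehicle-treated mice and present in every library from panobinostat-treated mice. They were chosen from the read counts themselves. A gene belonged to the group when its level was under 0.5 CPM (the count divided by the library total, times 1000000) in all 3 vehicle libraries and at least 1 CPM in all 3 panobinostat libraries. Of 27179 genes in the table, 28 met both conditions, which is 0.103% of all genes and 0.193% of the 14506 genes that were under 0.5 CPM in every vehicle library. Because the treatment itself chose the genes, their levels and fold changes are given as a description, without a test, and their non-overlapping groups are a consequence of the choice.

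Panobinostat blocks histone deacetylases, enzymes that remove acetyl groups from histone tails and so help keep chromatin closed. Genes that are silent in a blood cell are often kept so by such enzymes together with DNA methylation and repressor complexes. A gene can also be silent simply because its activating signal is missing, as is the case for many interferon-stimulated genes in resting cells.

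The panobinostat group comprised 3 libraries from C57BL/6 mice that carried the leukemia A/E9a;NRASG12D and received panobinostat for 3 days. In the vehicle group, 3 libraries came from mice of the same strain and leukemia given vehicle over the same time. Both groups share the leukemia's alleles, the AML1-ETO9a splice product of RUNX1-RUNX1T1 and a mutant NRAS. Viable GFP-positive cells, which exclude propidium iodide, were sorted from the spleen, so every library holds cells of 1 engineered leukemia. Nothing in the labels ties a library to its own mouse, so the spread within a group may be technical. Libraries carry the leading number of their count column, which names the group but no replicate. Each column name holds further numbers of unexplained meaning, and the last of them differs for panobinostat library 1 alone.

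Total counts were 25794869 to 32571961 in the panobinostat libraries and 27259492 to 29548544 in the vehicle libraries. A single count was worth 0.0307 to 0.0388 CPM with panobinostat and 0.0338 to 0.0367 CPM with vehicle, so the vehicle limit of 0.5 CPM corresponds to 13.6 to 14.8 counts. Hemoglobin genes took 3.22% to 6.73% of all counts in the panobinostat libraries and 0.615% to 0.848% in the vehicle libraries. Of 105 marker genes of other spleen cells 56 were near-silent in vehicle and 0 were switched on, a number too small to read against the 0.193% of all near-silent genes. Summed macrophage and monocyte markers reached 53.4 to 99.99 CPM with panobinostat and 38.5 to 48.3 CPM with vehicle, and summed dendritic cell markers 22.4 to 25.8 CPM with panobinostat and 13.2 to 15.1 CPM with vehicle. Summed B cell markers (10.9 to 30.4 and 23.0 to 26.5 CPM) and T and NK cell markers (77.1 to 159.9 and 88.8 to 119.5 CPM) overlapped between panobinostat and vehicle. Of 19 tested macrophage and monocyte markers 4 rose in edgeR's quasi-likelihood test (Benjamini-Hochberg adjusted p under 0.05), where 11.3% of all tested genes rose. That count was 2 when panobinostat library 5 was left out, 1 for vehicle library 3 and 0 for vehicle library 2 or 4. The macrophage genes C1qa and Csf1r were highest in panobinostat library 1, at 4.51 and 8.50 CPM. Of 7 tested dendritic cell markers 2 rose and 0 fell. Of 9 tested endothelial markers 2 rose (Kdr and Pecam1) and 0 fell. The Pecam1 call was lost without any 1 vehicle library (edgeR adjusted p at most 0.094). Kdr was at 16.8, 9.23 and 7.44 CPM in panobinostat libraries 1, 5 and 6, against 1.455, 1.06 and 0.741 CPM in vehicle libraries 2, 3 and 4 (edgeR adjusted p = 0.0043). Cdh5 of endothelium was at most 0.039 CPM with panobinostat. Siglech of plasmacytoid dendritic cells had a single count in the panobinostat libraries together, and Pdgfra of fibroblasts had 0 in all libraries. Summed fibroblast and matrix genes reached 1674 to 2601 CPM with panobinostat and 1313 to 1731 CPM with vehicle, ranges that overlap. Of 10 tested genes of that list 1 rose (Pdgfrb, edgeR adjusted p = 0.015) and 0 fell. The Pdgfrb call was lost without any 1 vehicle library (at most 0.072). The part of such cells in the genes below was not tested. In these bulk samples a higher level in every cell cannot be told apart from more cells that express the gene.

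The choice rests on few reads in the vehicle libraries. Members had between 0 and 14 counts in a single vehicle library and between 26 and 480 in a single panobinostat library. Only 2 of the 84 vehicle values were 0, and 26 of the 28 genes had at least 1 read in each vehicle library. The genes were therefore near-silent rather than unread. Mean levels with panobinostat ran from 1.23 to 10.5 CPM with a median of 2.35, against 0.0592 to 0.397 CPM with a median of 0.246 in vehicle. The ratio of group means ran from 3.30 to 68.2 with a median of 10.8. A stricter measure, the lowest panobinostat library over the highest vehicle library, ran from 2.169 for Rnf207 to 27.1 for Hba-x. All 28 passed the filter on low counts that was used for the fit across all genes, which a gene could pass through the panobinostat libraries alone.

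**Figure D1:**
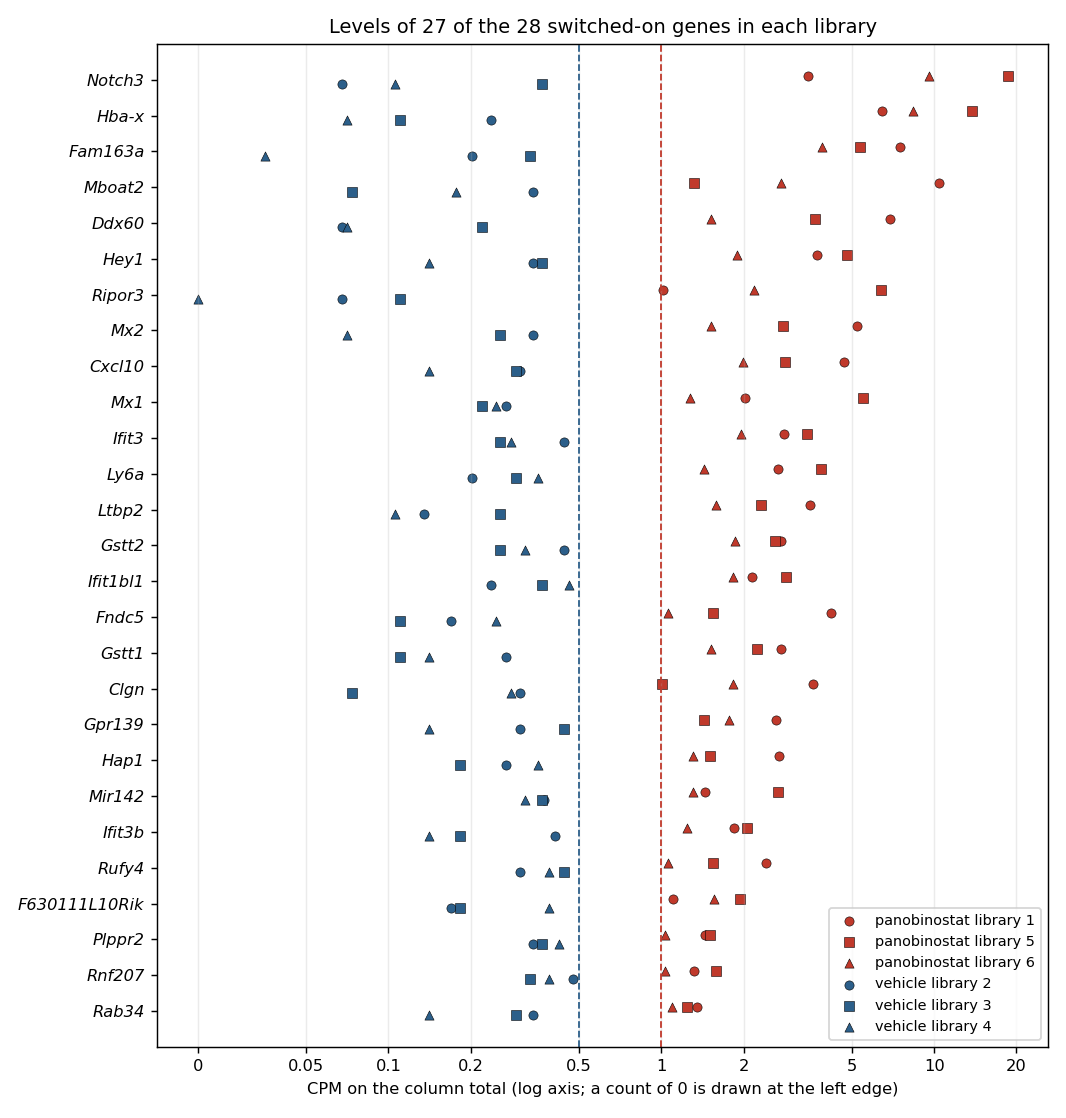
CPM (log axis) of 27 of the 28 switched-on genes in the 3 panobinostat libraries (red) and the 3 vehicle libraries (blue), ordered by mean level with panobinostat. Dashed lines mark 1 CPM and 0.5 CPM, the limits that chose the genes, so the gap between the groups is a result of the choice; Ripor3 has 1 vehicle library at 0.

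By type, 24 of the 28 were protein-coding genes, 2 were transcribed pseudogenes, 1 was a microRNA locus and 1 a long noncoding RNA. The coding genes were 0.247% of the 9705 coding genes that were near-silent in vehicle. By known normal tissue they fell into an interferon-linked set of 8, a Notch pair, an embryonic globin, and genes best known from nervous system, muscle, testis or connective tissue.

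Interferon-linked genes were the largest set of related function. They are normally quiet, and in most cell types interferon turns them on through a factor complex that binds the interferon-stimulated response element (ISRE). Of 75 genes in a list of interferon-stimulated genes, 23 were near-silent in vehicle and 6 of those were switched on. Over all near-silent genes the share was 0.193% (28 of 14506). The 6 were Mx1, Mx2, Cxcl10, Ifit3, Ifit3b and Ifit1bl1. The Ifit genes among them are neighbours that may share reads, so the 6 do not count as separate. Ddx60 and Ly6a, which are also known to respond to interferon, were not in the list.

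Promoters of 4 of these genes are shown because they carry the ISRE core and show how the copies Ifit3 and Ifit3b differ. Each is RefSeq sequence of build GRCm38.p6 from 250 bases before to 50 bases after an annotated start, on the strand of the gene. Capitals mark matches on either strand to the ISRE core, which is GAAA, any 2 bases and GAAA again. They lie at chr8:61927837-61928136 (plus strand) for Ddx60, chr5:92348840-92349139 (minus strand) for Cxcl10, chr19:34583279-34583578 (plus strand) for Ifit3 and chr19:34607707-34608006 (plus strand) for Ifit3b.
Ddx60: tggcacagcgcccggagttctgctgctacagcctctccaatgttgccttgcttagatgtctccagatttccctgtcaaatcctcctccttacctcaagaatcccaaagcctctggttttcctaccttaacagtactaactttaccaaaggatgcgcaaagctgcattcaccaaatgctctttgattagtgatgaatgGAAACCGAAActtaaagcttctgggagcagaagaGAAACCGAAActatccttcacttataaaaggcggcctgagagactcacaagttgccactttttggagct
Cxcl10: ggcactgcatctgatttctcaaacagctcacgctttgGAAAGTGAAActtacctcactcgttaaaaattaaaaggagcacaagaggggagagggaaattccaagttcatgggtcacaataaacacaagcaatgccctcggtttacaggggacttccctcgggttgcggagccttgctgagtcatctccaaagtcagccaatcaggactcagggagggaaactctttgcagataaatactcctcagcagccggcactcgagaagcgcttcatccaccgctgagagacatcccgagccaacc
Ifit3: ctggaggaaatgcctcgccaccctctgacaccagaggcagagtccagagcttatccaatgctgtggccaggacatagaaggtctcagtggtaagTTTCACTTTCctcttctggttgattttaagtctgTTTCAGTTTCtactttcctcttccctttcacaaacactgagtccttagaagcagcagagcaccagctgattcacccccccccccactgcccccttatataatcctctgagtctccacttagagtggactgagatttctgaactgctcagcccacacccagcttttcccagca
Ifit3b: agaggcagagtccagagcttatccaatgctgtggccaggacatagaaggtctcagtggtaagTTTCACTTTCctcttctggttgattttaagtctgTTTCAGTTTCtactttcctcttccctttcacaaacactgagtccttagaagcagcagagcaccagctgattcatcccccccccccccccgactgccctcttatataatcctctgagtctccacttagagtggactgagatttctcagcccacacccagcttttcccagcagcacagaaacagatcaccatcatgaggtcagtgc

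In Ddx60 the leftmost base of the matches lay at positions -53 and -19 from the annotated start. Ifit3 held its matches at positions -156 and -122 from the start, and Ifit3b at -188 and -154. The 2 matches were 34 bases apart in each of these 3 promoters, and Cxcl10 had 1 match, at -213. Shifted by 32 bases, the Ifit3 and Ifit3b promoters were identical at 201 of 268 positions without gaps (75.0%). The copies differ in the length of a run of C, and Ifit3b lacks a short stretch that Ifit3 has. Positions past such a difference fall out of register, so the 75.0% understates how alike the copies are. A promoter sequence was at hand for 17 of the 28 genes (60.7%), too few for a comparison of base composition between the group and other genes. Of the 17, 6 held the ISRE core (Ddx60, Cxcl10, Ifit3, Ifit3b, Ifit1bl1 and Gstt1), while 3.44% of all 32851 promoters in the RefSeq table did. The GC box GGGCGG was in 8 of the 17 and in 35.7% of all promoters, the GATA core AGATAA in 3 and 11.2%, and the RBPJ core GTGGGAA of Notch signalling in 0 and 6.38%, each searched on both strands. Hey1, Mx1, Mx2 and Ly6a were not among the 17, so no motif was searched in them. A gene counted when any of its promoter windows matched, while the shares over all count single promoters. Ifit1bl1, Hap1 and Rab34 had 2 windows each. A match is a string of letters in such a window and not a measured binding site.

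Ddx60, a helicase that acts with the RNA sensor RIG-I (Entrez gene 234311; GRCm38 chromosome 8, 61928073 to 62037704), was the most abundant of the set. It was at 6.88, 3.64 and 1.53 CPM in panobinostat libraries 1, 5 and 6, against 0.0677, 0.220 and 0.0706 CPM in vehicle libraries 2, 3 and 4. The group means were 4.02 ± 2.69 and 0.119 ± 0.0872 CPM (SD, n = 3 each), a ratio of 33.6. Panobinostat library 1 was 4.51 times library 6, the lowest of the treated libraries. Other RNA-sensing helicases were already present in vehicle. Dhx58 averaged 178 ± 63.4 CPM with panobinostat and 23.3 ± 2.73 CPM with vehicle, and Ddx58, which encodes RIG-I, 210 ± 43.1 and 38.9 ± 0.557 CPM (SD, n = 3 each). Both rose, with edgeR adjusted p values of 0.0028 and 0.0014.

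Mx1 and Mx2 encode dynamin-like antiviral GTPases, and laboratory strains such as C57BL/6 carry defective alleles, which RefSeq annotates as transcribed pseudogenes. Mx2 was at 5.22, 2.79 and 1.53 CPM in panobinostat libraries 1, 5 and 6 and at 0.338, 0.257 and 0.0706 CPM in vehicle libraries 2, 3 and 4. Mx1 was at 2.03, 5.47 and 1.28 CPM with panobinostat and at 0.271, 0.220 and 0.247 CPM with vehicle. The neighbours, 73.2 kb apart on chromosome 16, thus peaked in different libraries, Mx2 in library 1 and Mx1 in library 5. The transcripts say nothing of a working Mx protein. Fam3b, the nearest tested gene to both, averaged 0.346 ± 0.182 CPM with panobinostat and 0.435 ± 0.138 CPM with vehicle, and was not called (edgeR adjusted p = 0.74).

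Cxcl10, a chemokine that attracts T cells through CXCR3, was at 4.67, 2.83 and 1.99 CPM in panobinostat libraries 1, 5 and 6, against 0.305, 0.293 and 0.141 CPM in vehicle libraries 2, 3 and 4. The ratio of means was 12.8. Its close relatives on the same receptor did not meet the conditions. Cxcl9 had 0 reads in the vehicle libraries and reached 1.41 CPM in panobinostat library 1, but only 0.0390 and 0.0930 CPM in libraries 5 and 6. Cxcl11 had 0 reads in all 6 libraries. Of 13 CXC chemokine genes in the table, Cxcl10 alone met the conditions, and 11 of the other 12 were also under 0.5 CPM in every vehicle library. Cxcl3, a chemokine that attracts neutrophils and was present in vehicle, rose with panobinostat (edgeR adjusted p = 0.027), a call lost when vehicle library 2 or 4 or panobinostat library 5 was left out (at most 0.11). Cxcl5 was near-silent in vehicle, and its levels were 0.553, 1.43 and 0.623 CPM in panobinostat libraries 1, 5 and 6, against 0.203, 0.1101 and 0.0350 CPM in vehicle libraries 2, 3 and 4.

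Ifit genes encode proteins that bind viral RNA, and 3 of the 6 in the table were switched on. Ifit3 was at 2.82, 3.41 and 1.96 CPM in panobinostat libraries 1, 5 and 6, against 0.440, 0.257 and 0.282 CPM in vehicle libraries 2, 3 and 4. Ifit1bl1 was at 2.15, 2.87 and 1.84 CPM with panobinostat and at 0.237, 0.367 and 0.459 CPM with vehicle. Ifit3b was at 1.84, 2.05 and 1.25 CPM with panobinostat and at 0.406, 0.183 and 0.141 CPM with vehicle. All 3 were highest in panobinostat library 5 and differed by at most 1.74 times among the treated libraries, unlike Ddx60 and Mx2. Ifit3 and Ifit3b are near-identical and may share reads, as may Ifit1bl1 and Ifit1bl2, whose annotated spans overlap. The other 3 Ifit genes were present in vehicle and rose. Of these Ifit1bl2 averaged 9.28 ± 6.13 CPM with panobinostat and 0.503 ± 0.129 CPM with vehicle (SD, n = 3 each; edgeR adjusted p = 0.0051).

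Ly6a encodes Sca-1, a surface protein of blood stem cells, T cells and endothelium that interferon also induces. It was at 2.67, 3.84 and 1.43 CPM in panobinostat libraries 1, 5 and 6 and at 0.203, 0.293 and 0.353 CPM in vehicle libraries 2, 3 and 4. Among 20 Ly6 genes in the table it alone was switched on, and 15 of the other 19 were near-silent in vehicle as well. Ly6e, its nearest tested gene, 34973 bases away, was far above it at 961 ± 139 CPM with panobinostat and 644 ± 22.4 CPM with vehicle (SD, n = 3 each). It rose by 0.68 ± 0.12 (log2, SE; edgeR adjusted p = 0.012), and the call was lost without vehicle library 2 or vehicle library 4 (at most 0.066).

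Interferon-stimulated genes outside the group moved the same way. Of 57 that were tested, 49 rose and 0 fell in edgeR's quasi-likelihood test, with a median log2 fold change of 1.92, while 11.3% of all 12916 tested genes rose, 9.72% fell and the median over all was 0.01. Among the 52 that were at 0.5 CPM or more in a vehicle library 45 rose, while the other 5 could pass the filter on low counts through the panobinostat libraries alone. Between 39 and 50 of 57 to 61 tested rose when any 1 library was left out. Scaling by library size alone shifted the median over all genes to -0.10 and left 49 of the 57 higher.

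Notch3 and Hba-x had the highest mean levels of all 28 genes with panobinostat. Hba-x is zeta globin, the alpha-like globin of the first embryonic red cells (Entrez gene 15126; chromosome 11, 32276600 to 32278116). It was at 6.42, 13.7 and 8.38 CPM in panobinostat libraries 1, 5 and 6, against 0.237, 0.1101 and 0.0706 CPM in vehicle libraries 2, 3 and 4. The means were 9.49 ± 3.76 and 0.139 ± 0.0869 CPM (SD, n = 3 each), and the ratio of 68.2 was the highest of the 28 genes. The other 9 globin genes in the table were present in vehicle and all rose. Hba-a1, its nearest tested neighbour at 5.6 kb, averaged 10077 ± 4448 CPM with panobinostat and 1877 ± 234 CPM with vehicle, with a log2 fold change of 2.54 ± 0.31 (SE; edgeR adjusted p = 0.0049). Hba-a1 was highest in panobinostat library 1 and Hba-x in library 5, as was the embryonic beta-like globin Hbb-y at 573 CPM.

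Notch3 is a receptor best known from vascular smooth muscle, which releases an intracellular fragment that drives transcription with RBPJ (Entrez gene 18131; chromosome 17, 32120820 to 32166896). It was at 3.44, 18.6 and 9.56 CPM in panobinostat libraries 1, 5 and 6, against 0.0677, 0.367 and 0.106 CPM in vehicle libraries 2, 3 and 4. It was the most abundant of the 28 genes, with means of 10.5 ± 7.63 and 0.180 ± 0.163 CPM (SD, n = 3 each), and library 5 was 5.41 times library 1. Hey1, a repressor that Notch receptors induce in heart and vessels (Entrez gene 15213; chromosome 3, 8663359 to 8667038), was at 3.71, 4.81 and 1.90 CPM with panobinostat and at 0.338, 0.367 and 0.141 CPM with vehicle. The other Notch receptors were all present in vehicle and none was called, with log2 fold changes of 0.16 ± 0.51 for Notch1, 0.07 ± 0.25 for Notch2 and 0.74 ± 0.30 for Notch4 (SE; edgeR adjusted p = 0.85, 0.86 and 0.12). Hes1, another Notch target, averaged 79.7 ± 14.6 CPM with panobinostat and 60.8 ± 10.6 CPM with vehicle and was not called (edgeR adjusted p = 0.081). Notch1 and Notch2 were lowest in panobinostat library 1, as Notch3 was.

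**Figure D2:**
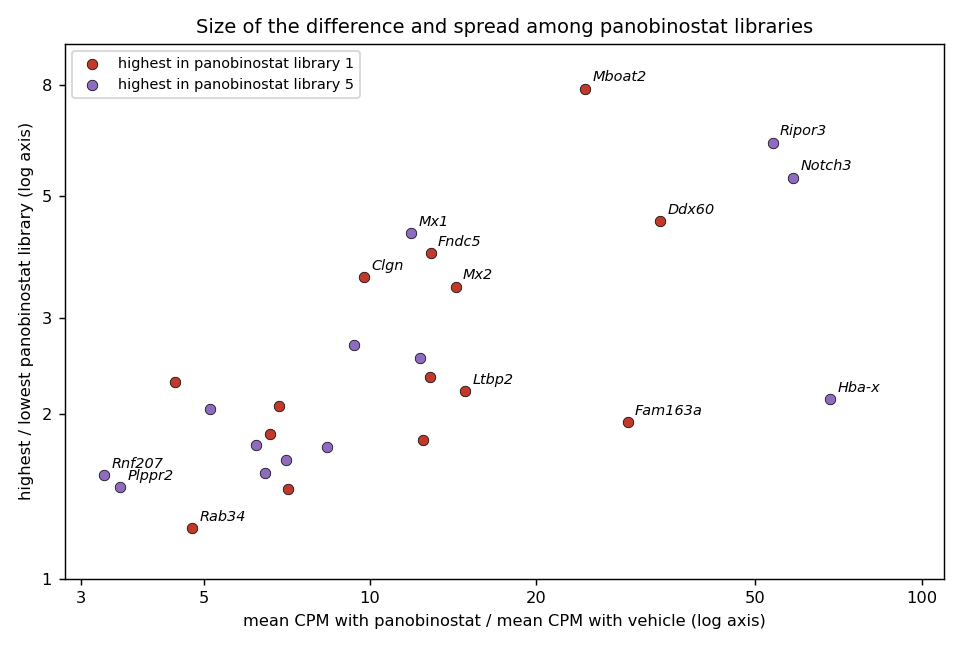
Ratio of mean CPM with panobinostat to mean CPM with vehicle (x, log axis) against the ratio of the highest to the lowest panobinostat library (y, log axis) for 27 of the 28 switched-on genes, coloured by the library in which each was highest. Hba-x combines the largest ratio of means, 68.2, with a spread of 2.13, while Mboat2 has the widest spread at 7.87.

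Genes best known from the nervous system were 4. Fam163a, first described in neuroblastoma in humans (Entrez gene 329274; chromosome 1, 156075956 to 156205453), was at 7.46, 5.35 and 3.86 CPM in panobinostat libraries 1, 5 and 6, against 0.203, 0.330 and 0.0353 CPM in vehicle libraries 2, 3 and 4. Its lowest panobinostat library was 11.7 times its highest vehicle library, second to Hba-x.

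Gpr139, an orphan receptor of the brain, was at 2.64, 1.43 and 1.78 CPM in panobinostat libraries 1, 5 and 6 and at 0.305, 0.440 and 0.141 CPM in vehicle libraries 2, 3 and 4. Hap1, the huntingtin-associated protein of neurons, was at 2.70, 1.51 and 1.31 CPM with panobinostat and at 0.271, 0.183 and 0.353 CPM with vehicle. Plppr2, of a family of brain lipid phosphatase relatives, had one of the smallest ratios of means, 3.53. Its span overlaps that of Ccdc159, so their reads may not be separate.

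Muscle, testis and secreted matrix proteins had 1 or 2 genes each. Fndc5, the precursor of the muscle-derived peptide irisin, was at 4.18, 1.55 and 1.06 CPM in panobinostat libraries 1, 5 and 6, against 0.169, 0.1101 and 0.247 CPM in vehicle libraries 2, 3 and 4. Clgn, a chaperone of the sperm-forming testis, was at 3.59, 1.01 and 1.84 CPM with panobinostat and at 0.305, 0.0734 and 0.282 CPM with vehicle. Calnexin (Canx), the widely expressed relative of Clgn, fell to 429 ± 58.5 CPM with panobinostat, against 667 ± 26.6 CPM with vehicle (SD, n = 3 each; edgeR adjusted p = 0.018), a call lost without any 1 vehicle library (at most 0.090). Ltbp2, a microfibril protein related to the binders of latent TGF-beta, was at 3.50, 2.33 and 1.59 CPM with panobinostat and at 0.135, 0.257 and 0.106 CPM with vehicle. An annotated antisense gene that overlaps Ltbp2, D030025P21Rik, was under 1 CPM in all libraries. It was at 0.40, 0.74 and 0.25 CPM with panobinostat and at 0.00, 0.07 and 0.00 CPM with vehicle. Any sharing of reads between the 2 genes was not tested. Rnf207, a RING finger protein of heart, had the smallest ratio of means, 3.30, and overlaps Icmt on the opposite strand. Icmt averaged 74.4 ± 5.92 CPM with panobinostat and 87.0 ± 5.38 CPM with vehicle (SD, n = 3 each), far above Rnf207, and was not called (edgeR adjusted p = 0.37).

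Metabolic and trafficking genes completed the coding group. Mboat2, an acyltransferase that remodels membrane phospholipids (Entrez gene 67216; chromosome 12, 24831435 to 24964400), was at 10.4, 1.32 and 2.74 CPM in panobinostat libraries 1, 5 and 6, against 0.338, 0.0734 and 0.176 CPM in vehicle libraries 2, 3 and 4. Its mean of 4.81 ± 4.87 CPM (SD, n = 3) rested on library 1. Ripor3, a member of the RIPOR gene family, showed the opposite order, at 1.01, 6.36 and 2.18 CPM with panobinostat and 0.0677, 0.1101 and 0.0 CPM with vehicle. It had 5 reads in the vehicle libraries together, so its ratio of means of 53.7 is poorly fixed.

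Gstt1 and Gstt2, theta-class glutathione transferases known from liver and kidney, lie 33.3 kb apart on chromosome 10 and had like levels. Gstt1 was at 2.73, 2.25 and 1.53 CPM in panobinostat libraries 1, 5 and 6 and at 0.271, 0.1101 and 0.141 CPM in vehicle libraries 2, 3 and 4. Gstt2 was at 2.73, 2.60 and 1.87 CPM with panobinostat and at 0.440, 0.257 and 0.318 CPM with vehicle. Gstt3, 2.4 kb beyond Gstt1, was already at 1.99 ± 0.217 CPM with vehicle and averaged 2.79 ± 0.573 CPM with panobinostat, and was not called (SD, n = 3 each; edgeR adjusted p = 0.12), while Gstt4 had 0 reads in every library. Rab34, a small GTPase of the Golgi and of cilia, had the lowest mean of the 28 genes, 1.23 ± 0.131 CPM with panobinostat and 0.258 ± 0.103 CPM with vehicle (SD, n = 3 each). It also had the narrowest spread among treated libraries, 1.24 times.

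Blood cell genes other than the globin and Ly6a were Rufy4 and Mir142. Rufy4, which is linked to autophagy in dendritic cells, was at 2.43, 1.55 and 1.06 CPM in panobinostat libraries 1, 5 and 6, against 0.305, 0.440 and 0.388 CPM in vehicle libraries 2, 3 and 4. Its span overlaps that of Tns1, which averaged 4.85 ± 2.41 CPM with panobinostat and 5.44 ± 1.15 CPM with vehicle and was not called (SD, n = 3 each; edgeR adjusted p = 0.92). Summed dendritic cell markers were higher with panobinostat, as given above, and their part in Rufy4 was not tested.

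Mir142 is the locus of miR-142, a microRNA of nearly all blood cells. Its hairpin spans 64 bases of chromosome 11 (87756864 to 87756927), and the mature forms are shown because the locus is the only small RNA in the group. Both are RefSeq sequence of build GRCm38.p6, with the seed (bases 2 to 8) in capitals.
mmu-miR-142a-5p: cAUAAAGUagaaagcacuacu
mmu-miR-142a-3p: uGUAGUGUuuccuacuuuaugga

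The arms have different seeds and so different predicted targets. Reads over the hairpin were 1.44, 2.67 and 1.31 CPM in panobinostat libraries 1, 5 and 6, against 0.372, 0.367 and 0.318 CPM in vehicle libraries 2, 3 and 4. In an mRNA library such reads come from the host transcript or another long RNA and do not measure the mature microRNA. The hairpin lies inside the long noncoding RNA Mir142hg and opposite Mir142b, neither of which has a row in the table. Tspoap1, 1.3 kb away, fell to 27.8 ± 5.55 CPM with panobinostat, against 58.6 ± 1.495 CPM with vehicle (SD, n = 3 each; log2 fold change -0.97 ± 0.15 SE, edgeR adjusted p = 0.0093), opposite in direction to Mir142.

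F630111L10Rik, a long noncoding RNA of no given function on chromosome 3 (59146296 to 59153628), was at 1.11, 1.94 and 1.56 CPM in panobinostat libraries 1, 5 and 6 and at 0.169, 0.183 and 0.388 CPM in vehicle libraries 2, 3 and 4. It lies within the span of Med12l, which averaged 6.49 ± 1.19 CPM with panobinostat and 3.53 ± 0.685 CPM with vehicle (SD, n = 3 each). Med12l rose (edgeR adjusted p = 0.025), a call lost without vehicle library 2, vehicle library 4 or panobinostat library 5 (at most 0.11). The strand setting of the counting is unknown, so overlapping genes cannot be told apart by their reads. In the GENCODE annotation 8 of the 28 genes overlap another gene, and 5 overlap the RefSeq span of their nearest tested neighbour.

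Panobinostat library 1 was highest for 15 of the 28 genes and library 5 for 13, while library 6 was highest for 0 and lowest for 21. The summed level of the 28 genes was 95.1, 102 and 60.9 CPM in panobinostat libraries 1, 5 and 6, against 7.41, 7.04 and 6.07 CPM in vehicle libraries 2, 3 and 4. Spread among treated libraries was under 2 times for 11 genes and at least 3 times for 8. Only 5 of the 28 genes reached 2 CPM in library 6, compared with 21 in library 1 and 18 in library 5. Library 1 kept out the most genes, however. Leaving it out added 14 genes to the group, against 7 for library 6 and 0 for library 5.

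Among all genes that were near-silent in vehicle, 58 reached 1 CPM in panobinostat library 1 only and 57 in library 5 only. No gene did so in library 6 only or in libraries 1 and 6 only. A further 14 reached it in libraries 5 and 6, and 7 in libraries 1 and 5. The genes that reached 1 CPM in a single treated library therefore outnumbered the 28 that did so in all 3.

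**Figure D3:**
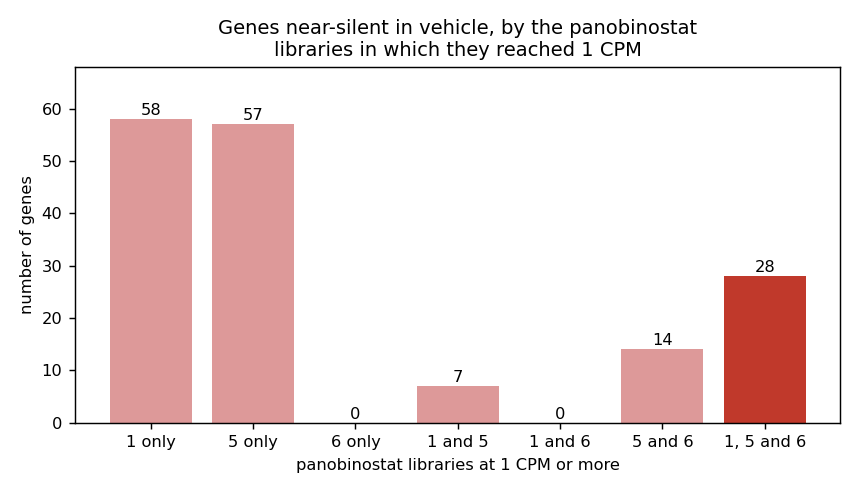
Number of genes under 0.5 CPM in every vehicle library that reached 1 CPM in the named panobinostat libraries and in no other. The 28 switched-on genes are the last bar; 58 and 57 genes reached the limit in library 1 only or library 5 only.

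Lists for 8 tissues (neuron and synapse, glia and myelin, germ line and testis, muscle, epithelium, endothelium, fibroblast and matrix, and liver, gut and kidney) held 325 different genes in the table. Of these 247 were near-silent in vehicle, and 0 were switched on. The lists do not contain the members placed in such tissues above, among them Fam163a, Gpr139, Hap1, Fndc5, Clgn, Ltbp2, Gstt1 and Gstt2. The 0 therefore describes the listed genes and does not mean that no tissue gene was switched on. A count of 0 is near the background share of 0.193% of all near-silent genes. In any panobinostat library 3 of the 247 reached 1 CPM (Chga, Vgf and Pdgfrb), a share of 1.21%, near the 1.13% of all near-silent genes that did so (164 of 14506). A list of 91 developmental transcription factors held 88 near-silent genes and 0 switched on, and a list of 39 imprinted genes held 24 and 0. The switched-on repressor Hey1 is not in the list of transcription factors, so its 0 describes the listed genes only. In families defined by symbol, 0 of 1125 near-silent olfactory receptor genes, 0 of 52 keratins, 0 of 34 Hox genes and 0 of 169 solute carriers were switched on.

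Of 83 tested genes of the 8 lists, 15 rose (18.1%) and 4 fell (4.82%) in edgeR's quasi-likelihood test, beside 11.3% and 9.72% of all tested genes. Among the 77 of them at 0.5 CPM or more in a vehicle library 12 rose (15.6%) and 4 fell. The number that rose was 4 of 85 tested with vehicle library 2 or 4 left out and 7 of 85 with vehicle library 3 left out. It was 23 of 83 with panobinostat library 1 left out. Of all tested genes 3.28%, 5.64% and 2.29% rose without vehicle libraries 2, 3 and 4, and 16.8% without panobinostat library 1. The neuron and synapse list had 7 of its 20 tested genes higher and 0 lower, and 5 of the 17 that were at 0.5 CPM or more in a vehicle library were higher. Tubb3, the neuronal tubulin, was at 22.7, 38.2 and 28.1 CPM in panobinostat libraries 1, 5 and 6, against 4.43, 8.47 and 3.00 CPM in vehicle libraries 2, 3 and 4 (edgeR adjusted p = 0.0075), and was chosen after its values were seen.

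**Figure D4:**
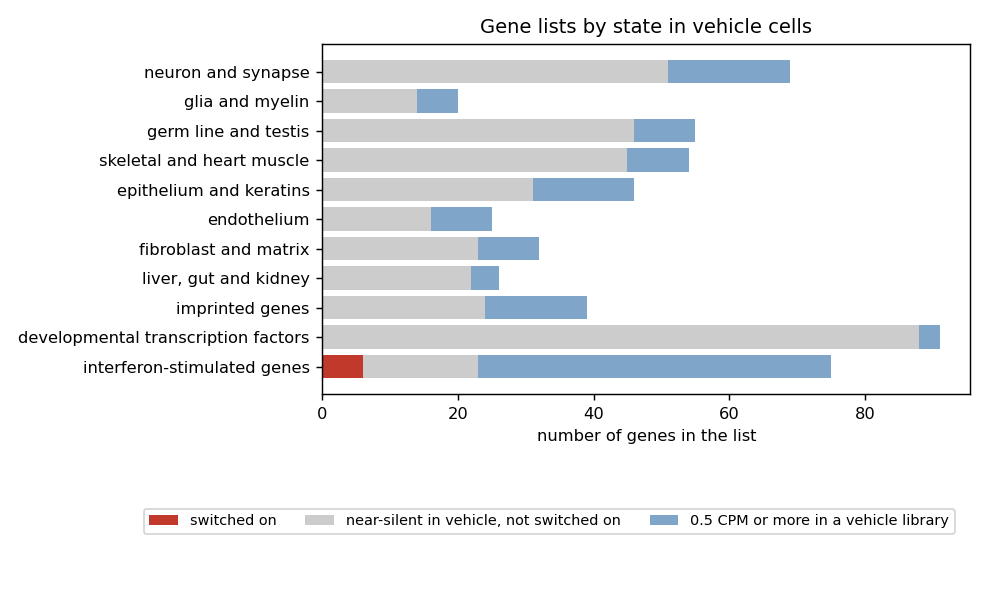
Number of genes in each list by state: switched on (red), under 0.5 CPM in every vehicle library and not switched on (grey), and at 0.5 CPM or more in a vehicle library (blue). The interferon-stimulated list holds 6 switched-on genes, and the 8 tissue lists, the imprinted genes and the developmental transcription factors hold 0. The tissue lists do not contain the switched-on genes that the text places in those tissues, and the transcription factor list does not contain Hey1.

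Relatives were grouped mostly by name or family, and for Ddx60 by a shared role in RNA sensing, to see whether related genes moved. Outside the group, 96 relatives were in the table and 51 of them were near-silent in vehicle. Of 47 tested relatives 19 rose (40.4%) and 1 fell (Canx, 2.13%), beside 11.3% and 9.72% of all tested genes, and 15 to 24 rose when any 1 library was left out. The 19 were 9 globins, 3 RNA-sensing helicases, 3 Ifit genes, Cxcl3, Cxcl5, Ly6e and Ltbp4. So 15 came from 3 groups, 1 of them chosen by function, and the share does not describe families in general. Of the 19, 18 were at 0.5 CPM or more in a vehicle library. Ltbp4 averaged 4.09 ± 1.94 CPM with panobinostat and 1.28 ± 0.373 CPM with vehicle (SD, n = 3 each; edgeR adjusted p = 0.022), a call lost without any 1 vehicle library (at most 0.096). For the Notch, Gstt, Fndc, RUFY and RIPOR families no tested relative was called.

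The 28 genes lay on 15 chromosomes. Chromosome 11 held 4 of them and chromosomes 4 and 19 held 3 each, while chromosomes 6, 13, 14, 18, X and Y held 0. As shares of near-silent genes these were 0.877% for chromosome 19, 0.522% for chromosome 11 and 0.409% for chromosome 4, and chromosome 16 with 2 of the genes had 0.503%, beside 0.193% over all. Such small counts, several of them from 1 gene cluster, allow no order of the chromosomes. Genes lying within 1 Mb of another member were 7 in 3 places: Mx1 with Mx2, Gstt1 with Gstt2, and the 3 Ifit genes. The genes on chromosome 11 were far apart, with at least 9565 kb between neighbours.

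Nearest tested neighbours outside the group were 26 different genes at a median distance of 6.85 kb. Of these 7 rose and 2 fell, shares of 26.9% and 7.69% beside the 11.3% and 9.72% over all tested genes. Those that rose were Ifit1bl2, Hba-a1, Ifit2, Med12l, Tor1aip2, Ly6e and S100pbp, and 4 of them belong to the family of their switched-on neighbour. Sdad1 beside Cxcl10 and Tspoap1 beside Mir142 fell. The calls of Tor1aip2 and Sdad1 were lost when vehicle library 2 or 4 was left out (edgeR adjusted p at most 0.060 and 0.068). That of S100pbp was lost for each library left out except panobinostat library 1 (at most 0.13), with library size alone and with no filter. The other 17 were not called, among them Ptpn1, which lies 0.8 kb from Ripor3 (0.21 ± 0.08, log2 and SE, edgeR adjusted p = 0.13). The count of higher neighbours was 3 without vehicle library 2 or vehicle library 4 and 11 without panobinostat library 1.

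**Figure D5:**
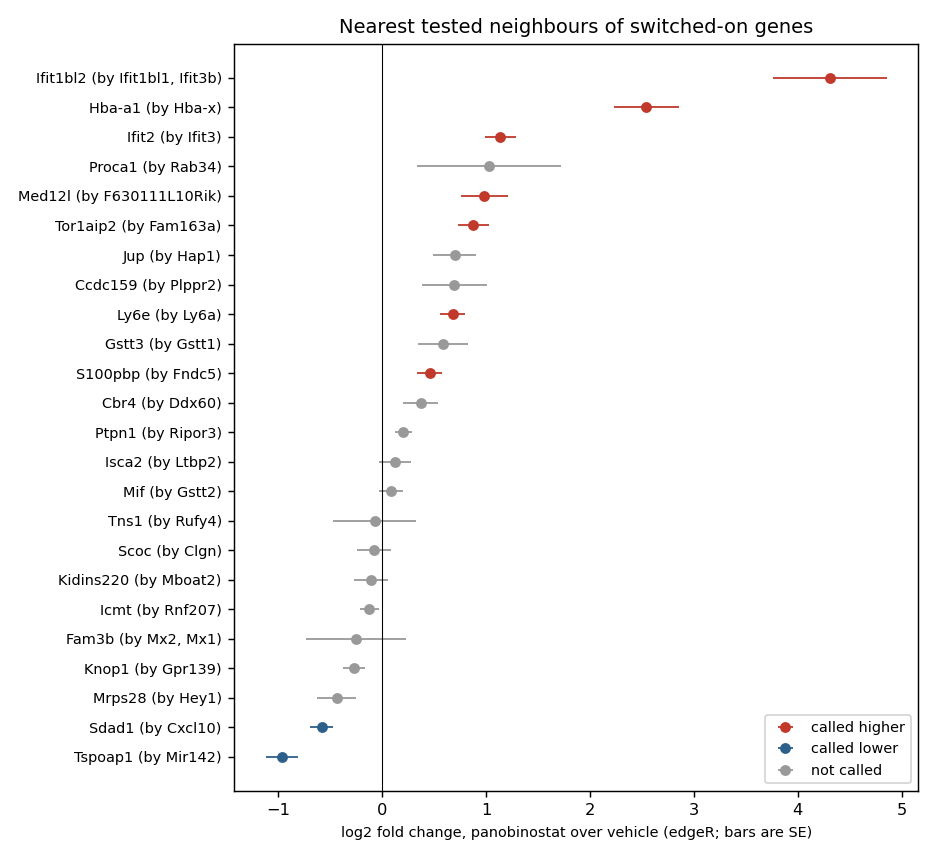
Log2 fold change of 24 of the 26 nearest tested genes to switched-on genes, panobinostat over vehicle, from edgeR with standard errors and 3 libraries per group. Red points were called higher (7), blue points lower (2) and grey points were not called (15 of 17 shown); Ifit1bl2 and Hba-a1 lie farthest to the right.

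At the limits the group shades into other genes. Just inside the panobinostat limit were Clgn, Ripor3 and Plppr2, with 1.01, 1.01 and 1.03 CPM in their lowest treated library, and just outside were Arl10, Syt13 and Tdrp at 0.952, 0.921 and 0.903 CPM. Just inside the vehicle limit were Rnf207, Ifit1bl1 and Gpr139, with 0.474, 0.459 and 0.440 CPM in their highest vehicle library, and just outside were Gm9949, Map1a and Cd72 at 0.514, 0.514 and 0.550 CPM. Map1a, a microtubule protein of neurons, was at 2.52, 28.1 and 7.97 CPM in panobinostat libraries 1, 5 and 6, higher than all 28 members in library 5.

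The opposite pattern was rarer. Genes at 1 CPM or more in all vehicle libraries and under 0.5 CPM in all panobinostat libraries numbered 10, which is 0.0368% of all genes and 0.0704% of the 14198 genes that were under 0.5 CPM in every panobinostat library. The highest was Gkn3, at 0.399, 0.310 and 0.405 CPM in panobinostat libraries 1, 5 and 6, against 11.1, 5.94 and 8.72 CPM in vehicle libraries 2, 3 and 4.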

How the data were processed

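RNA of sorted leukemia cells was measured in 6 libraries, 3 per group. The authors deposited unnormalized counts, 1 row per Entrez gene. Cutadapt 2.1, HISAT2 2.1.0, featureCounts, Subread 2.0.0 and build mm10 are named, per the submitters' processing notes. No source used here gives the annotation, the strand setting or the handling of multi-mapped reads. Names and positions came from RefSeq for GRCm38, the assembly of mm10, for 25275 of 27179 genes. CPM was computed on column totals. Low counts were removed with filterByExpr, leaving 12916 genes, and non-members were tested with edgeR 4.0.16 (R 4.3.3) by quasi-likelihood with TMM factors, a treatment term alone and p-values adjusted by Benjamini-Hochberg across those genes, after a check on simulated counts. Calls needed an adjusted p below 0.05, SE is the absolute log2 fold change over the square root of F, and p-values measure only the spread between these libraries. DESeq2 1.42.0, 2 other scalings, no filter, other limits of the choice and leaving out each library were alternatives. Named genes were members by level, list, position or nearness to a limit, plus neighbours, relatives and list genes, some chosen after their values were seen. Members, lists, relatives and motifs were chosen with earlier results of these data known. 1 member and some other genes are not reported here by name.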

Additional observations from a re-analysis of the deposited data

How the results depend on the processing

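The number of switched-on genes was 28. It was 31 with TMM-scaled CPM and 29 with library totals without hemoglobin genes. All TMM factors were below 1 with panobinostat and above 1 with vehicle, so TMM could only add genes. A vehicle limit of 0.25 CPM left 5 and one of 1 CPM gave 99, and a panobinostat limit of 2 CPM left 3 and one of 0.5 CPM gave 83, so the size of the group follows its limits. Leaving out 1 library, which also can only add genes, gave 28 to 42. Leaving out panobinostat library 1 lowered the mean with panobinostat to 2.03 CPM for Mboat2, 2.58 for Ddx60, 1.30 for Fndc5 and 1.42 for Clgn, against 4.81, 4.02, 2.26 and 2.15 with all 3. Leaving out panobinostat library 5 lowered it to 6.50 CPM for Notch3, 1.60 for Ripor3 and 1.65 for Mx1, against 10.5, 3.18 and 2.92. Over all genes, 1460 rose and 1255 fell. Scaling by library size alone gave 1135 and 2065, a share of 35.5% higher against 53.8%. Leaving out 1 library gave 303 to 2192 higher and 135 to 1864 lower genes, lowest without vehicle library 4 and highest without panobinostat library 1. Among the 26 neighbours of members, leaving out 1 library gave 3 to 11 higher and 1 to 3 lower, against 7 and 2. No paired analysis was possible because the count columns carry no replicate number. At 0.5 CPM a gene has 12.9 to 16.3 counts in a library, which limits the precision of every level below it. Alternatives for lists and relatives were added after the data were seen.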

Other observations

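Several genes that were near-silent in vehicle were uneven among the treated libraries and so fell outside the group. They were chosen after their values were seen. Chga, chromogranin A of neuroendocrine granules, was at 32.2, 0.775 and 0.965 CPM in panobinostat libraries 1, 5 and 6, against 0.440, 0.0730 and 0.176 CPM in vehicle libraries 2, 3 and 4. It was not called (edgeR adjusted p = 0.053, and 0.035 to 0.17 when any 1 library was left out). Six2, a homeobox factor of the developing kidney, was at 0.461, 3.95 and 0.872 CPM with panobinostat and had 0.0340, 0.0 and 0.0 CPM with vehicle. Pdgfrb, the PDGF receptor of pericytes, was at 0.491, 3.18 and 1.43 CPM with panobinostat and at 0.0680, 0.0730 and 0.141 CPM with vehicle.

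The 10 genes that were switched off were also of mixed function. After Gkn3 came Rgs13, a regulator of G protein signalling in mast cells and B cells, at 0.276, 0.116 and 0.405 CPM in panobinostat libraries 1, 5 and 6 and at 5.69, 3.01 and 3.88 CPM in vehicle libraries 2, 3 and 4. The related proprotein convertases Pcsk5 and Pcsk6 were both among them. Pcsk5 was at 0.0307, 0.0388 and 0.0311 CPM with panobinostat, a single read in each library, and at 3.62, 1.39 and 1.73 CPM with vehicle. Pcsk6 was at 0.0307, 0.271 and 0.249 CPM with panobinostat and at 3.15, 2.31 and 1.34 CPM with vehicle. The other 6 were Crb3, Pak3, Celsr2, Aoah, Cdon and Tram2. These values are a description, since the same libraries chose the genes.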
